A study of Mus musculus with 4 samples.

Results

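A group of 32 genes listed as direct transcriptional targets of p53 was followed in mouse embryonic fibroblasts (MEFs), connective tissue cells cultured from embryos. The group was set apart here from better known targets such as Cdkn1a and Mdm2. Whether p53 regulates each of these genes directly was not tested. The members were chosen by name from the annotation of the array, and all 32 were found among the 31824 gene names that it carries. They were covered by 40 of its 39429 probes. RNA came from WT (p53+/+) MEFs and p53-/- MEFs, each without and with the DNA damaging agent doxorubicin, and was measured with 4 Agilent arrays for mouse genes in a single color. Each condition had 1 array, and 1 slide held them all. The labels name no transgene or Cre driver for p53-/- MEFs and no altered gene for WT MEFs. The embryonic stage, the number of embryos behind a culture, and the dose and time of doxorubicin for the arrays are not given in the sources used here.

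p53 is a transcription factor that is kept scarce by Mdm2 in unstressed cells and is stabilized after DNA damage. It binds DNA as a tetramer at paired copies of a short half-site and raises transcription of genes that stop the cell cycle, promote cell death, repair DNA or alter metabolism. Some of these genes need p53 for their level in unstressed cells, and others respond mainly when p53 is activated. The contrast between both kinds can be read from these arrays gene by gene, as a loss in untreated p53-/- MEFs and as a rise with doxorubicin in each genotype.

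Signals are given below as scaled signals, the deposited intensity of a probe divided by the 75th percentile of its array and multiplied by 1000, so that a value of 1000 lies at that percentile. The percentiles were intensities of 2074 for untreated WT, 1819 for doxorubicin-treated WT, 1881 for untreated p53-/- and 2421 for doxorubicin-treated p53-/- MEFs. A probe was called measured on an array where the scanner software marked it as well above background. Members were compared as log2 ratios between arrays, and a ratio was called higher or lower from 2-fold on. Since RNA of whole cultures was measured, fewer cells expressing a gene and less of its RNA per cell cannot be told apart. With 1 array per condition there was no test and no spread between cultures. The only error that could be measured was the spread between repeat spots of a probe on an array, an SD of 0.06 on the log2 scale over 253 probes with 10 spots each, or 0.08 for a ratio. The brightest negative control spot had a scaled signal of 52.2 in untreated WT, 42.6 in doxorubicin-treated WT, 133 in untreated p53-/- and 49.4 in doxorubicin-treated p53-/- MEFs. Weak signals in untreated p53-/- MEFs are therefore the least certain ones. Levels can be compared between arrays for a gene, but not between genes, since each probe has its own brightness.

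The deleted gene itself served as a check of the labels. The Trp53 probe at chr11:69404204-69404263 (mm9) had a scaled signal of 592 and 1892 in WT MEFs without and with doxorubicin, and 235 and 224 in p53-/- MEFs. It was lower in p53-/- MEFs, with log2 ratios of -1.33 without and -3.08 with doxorubicin, and higher with doxorubicin in WT MEFs by 1.68. Whether this probe lies in the deleted part of the gene is not given in the sources used here. Fibroblast markers were measured on every array for 10 of 10 genes, with Col1a2, a chain of collagen I, as the brightest at scaled signals from 147641 to 293770. With doxorubicin, 4 of 10 fell at least 2-fold in WT MEFs, against 10.4% of all genes (Lum -4.81, Pdgfra -3.36, Pdgfrb -2.44 and Dcn -1.30) and 2 in p53-/- MEFs, against 6.89% (Lum -2.34 and Pdgfrb -1.73), on the log2 scale. Between the untreated genotypes, 2 of 10 were at least 2-fold lower in p53-/- MEFs, against 2.62% (Lum -1.34 and Dcn -1.14), and with doxorubicin 2 were at least 2-fold higher in p53-/- MEFs, against 11.9% (Pdgfra 3.22 and Lum 1.13). The part of these differences in the values of the p53 targets was not tested. The summed scaled signal of the 10 genes, led by Col1a2, was 836961 in untreated WT, 682771 in doxorubicin-treated WT, 688613 in untreated p53-/- and 563121 in doxorubicin-treated p53-/- MEFs. Such a sum adds probes of unequal brightness and mostly follows the brightest, and it does not rank the genes by their RNA.

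Of the 32 members, 30 were measured on all 4 arrays, Ptprv on both WT arrays only, and Tgfa in doxorubicin-treated WT MEFs only. In WT MEFs, doxorubicin raised 19 of 31 measured members at least 2-fold, where 11.0% of all measured genes rose, and 0 members fell, against 10.4% of all genes. In p53-/- MEFs, 4 of 30 rose, against 9.24% of all genes, and 1 fell, against 6.89%. With arrays scaled to their median, 7 of 30 fell in p53-/- MEFs, against 12.4% of all genes. The list therefore stood far above the background in WT MEFs, while in p53-/- MEFs the 13.3% that rose were close to the background. Between the untreated genotypes, 12 of 30 members were at least 2-fold lower in p53-/- MEFs, where 2.62% of all genes were, and 0 were higher, against 2.15%. With doxorubicin, 23 of 30 were lower in p53-/- MEFs, against 10.3% of all genes, and 0 were higher, against 11.9%. Of the markers of other cell types, 1 of 6 measured leukocyte genes (median 0.24) and 1 of 3 measured epithelial genes rose with doxorubicin in WT MEFs. The former was Cd14, at 13.4-fold (1.54-fold in p53-/- MEFs), beside log2 ratios of -0.63 for Csf1r, -0.57 for Lyz2, 0.22 for Ptprc, 0.26 for Fcgr1 and 0.46 for Itgam. The latter was Krt14 (1.54), beside 0.91 for Krt18 and -0.46 for Krt8. From untreated signals not well above background, Krt5 and Cd68 were at least 19.1-fold and 4.25-fold higher, or 10.02-fold and 2.23-fold against the brightest negative control of untreated WT MEFs, while Epcam, Cdh5 and Tie1 were not well above background on any array. In p53-/- MEFs, 2 of 3 measured epithelial genes rose with doxorubicin (Krt18 1.91 and Krt14 1.05, beside 0.32 for Krt8), against 9.24% of all genes. Of 3 neural genes measured in p53-/- MEFs, 1 rose (Nes 1.07) and 1 fell (Sox10 -1.13, against 6.89% of all genes). In WT MEFs, 1 of 3 measured neural genes (Sox10 -1.41) and 1 of 2 measured muscle genes (Acta1 -1.01) fell, against 10.4% of all genes. Among 5 measured leukocyte genes, 0 rose in p53-/- MEFs. The part of all these markers in the values of the p53 targets was not tested.

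The median log2 ratio of the members was 1.28 with doxorubicin in WT MEFs and 0.04 in p53-/- MEFs, beside medians of 0.01 and 0.00 over all genes. For p53-/- over WT MEFs it was -0.82 without and -2.23 with doxorubicin, beside 0.00 over all genes in both cases. Scaling to the median of each array moved the median of all genes to -0.27 with doxorubicin in WT MEFs and -0.30 in p53-/- MEFs. It turned 1935 higher and 1831 lower genes into 1321 and 2797 in WT MEFs, and 1569 and 1170 into 956 and 2104 in p53-/- MEFs. The median of the members moved with it, to 1.002 in WT and -0.26 in p53-/- MEFs.

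**Figure D1:**
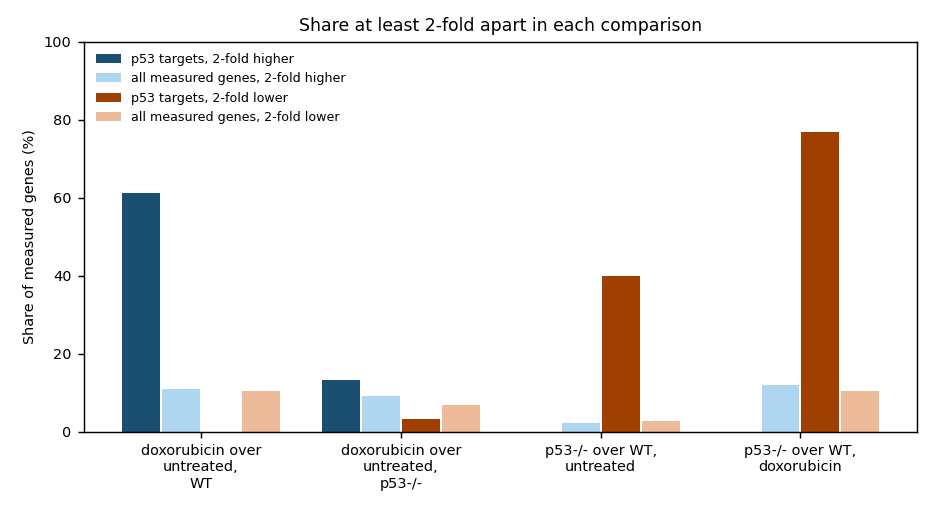
Share of measured genes (y axis, percent) at least 2-fold higher (blue) or lower (brown) in each of the 4 comparisons, dark bars for the p53 targets and pale bars for all measured genes. The dark bars stand above the pale ones for a rise in WT MEFs (61.3% against 11.0%) and for lower signals in p53-/- MEFs (12 of 30 against 2.62% untreated, 76.7% against 10.3% with doxorubicin), and lie close to the pale ones for a rise in p53-/- MEFs (13.3% against 9.24%).

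Genes that act in apoptosis and survival came first. Of the 10 members of this group, 5 rose in WT MEFs (11.0% of all genes), 3 rose (9.24%) and 1 fell (6.89%) in p53-/- MEFs, and 6 were lower in untreated p53-/- MEFs (2.62%). Perp encodes a tetraspan membrane protein of desmosomes that promotes apoptosis when induced by p53. Its scaled signal was 2273 and 48118 in WT MEFs without and with doxorubicin, and 164 and 2174 in p53-/- MEFs. The array of doxorubicin-treated WT MEFs stood far above the other 3, and untreated p53-/- MEFs lay close to the brightest negative control. Perp thus rose 21.2-fold in WT and 13.2-fold in p53-/- MEFs, although the level in untreated p53-/- MEFs was 13.8-fold below that in untreated WT MEFs. The probe lies at chr10:18576697-18576756.

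Trp53i11, a p53-inducible gene whose probe lies at chr2:93041816-93041875, showed no such basal loss with this probe. Its scaled signal was 949 and 13306 in WT MEFs without and with doxorubicin, and 861 and 3261 in p53-/- MEFs. It rose in both genotypes, with responses of 3.81 in WT and 1.92 in p53-/- MEFs on the log2 scale, while the log2 ratio between the untreated genotypes was -0.14. A second, dimmer Trp53i11 probe gave 2.48 in WT MEFs. In p53-/- MEFs its untreated signal was not well above background and its signal with doxorubicin, 78.2, was weaker than the 133 that a negative control reached without doxorubicin, so that no rise is read from it there. Its basal bound was at least 2.16-fold lower in p53-/- MEFs, but its signal in untreated WT MEFs, 66.3, was also weaker than that negative control, and the basal ratio of Trp53i11 thus rests on the brighter probe.

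Trp53inp1 encodes a nuclear protein that helps p53 activate death genes and also takes part in autophagy. The scaled signal was 5190.4 and 15667 in WT MEFs without and with doxorubicin, and 287 and 995 in p53-/- MEFs. Both p53-/- arrays lay below both WT arrays, and doxorubicin gave log2 ratios of 1.59 (WT) and 1.79 (p53-/-). The basal loss, -4.17, was the largest among the members measured when each was taken from its brightest probe, but was -3.11 for the mean of both probes, smaller than that of Perp. Its probes disagreed on the response in p53-/- MEFs. The dimmer probe gave 0.52 there, 2.41 in WT MEFs and -2.05 between the untreated genotypes, with a signal of 60.1 in untreated p53-/- MEFs, below the brightest negative control of that array.

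Aen, Zmat3, Phlda3 and Apaf1 were lower in untreated p53-/- MEFs but did not reach a 2-fold rise with doxorubicin in WT MEFs. For Aen, an apoptosis-enhancing nuclease, the scaled signal was 27354 and 44670.4 in WT MEFs without and with doxorubicin, and 11951 and 16113 in p53-/- MEFs. For Zmat3, a zinc finger protein that binds RNA and regulates splicing, it was 5474 and 7945 in WT MEFs without and with doxorubicin, and 938 and 646 in p53-/- MEFs. Both p53-/- arrays lay below both WT arrays for each gene, with basal log2 ratios of -1.19 and -2.54 and responses in WT MEFs of 0.71 and 0.54. The second Aen probe gave -1.20 and 0.64.

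Phlda3 encodes a pleckstrin homology protein that holds back the survival kinase Akt at the membrane. Its scaled signal was 45093 and 72271 in WT MEFs without and with doxorubicin, and 13259 and 7510.4 in p53-/- MEFs. The basal log2 ratio was -1.77, and doxorubicin gave 0.68 in WT and -0.82 in p53-/- MEFs. Apaf1 is the scaffold of the apoptosome, which activates initiator caspases. At scaled signals of 1143 and 1423 in WT MEFs without and with doxorubicin, and 503 and 209.5 in p53-/- MEFs, it had a basal log2 ratio of -1.18 and fell 2.40-fold in p53-/- MEFs, beside a log2 ratio of 0.32 in WT MEFs. No other member fell 2-fold in p53-/- MEFs with the 75th percentile as the scale. With the array median as the scale, Phlda3 (-1.12), Psrc1 (-1.10), Ptp4a3 (-1.16), Dgka (-1.07), Dcxr (-1.11) and Ak1 (-1.27) did so too.

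Ei24, a membrane protein of the endoplasmic reticulum with a role in autophagy, and Siva1, a proapoptotic adaptor, rose in WT MEFs and not in p53-/- MEFs. The Ei24 signal was 1217 and 4087 in WT MEFs without and with doxorubicin, and 620.1 and 386 in p53-/- MEFs, with responses of 1.75 in WT and -0.68 in p53-/- MEFs and a basal ratio of -0.97, just short of 2-fold. The Siva1 signal was 12774 and 30329 in WT MEFs without and with doxorubicin, and 9425 and 6679.6 in p53-/- MEFs, with log2 ratios of 1.25 and -0.50, and its second probe gave 1.20 and -0.44. With the array median as the scale the Siva1 ratio in WT MEFs was 0.97, below 2-fold. For both genes, doxorubicin-treated WT MEFs had the highest and doxorubicin-treated p53-/- MEFs the lowest signal. Triap1, a small mitochondrial protein that counters apoptosis, stayed under 2-fold, at 0.78 in WT and 0.33 in p53-/- MEFs.

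**Figure D2:**
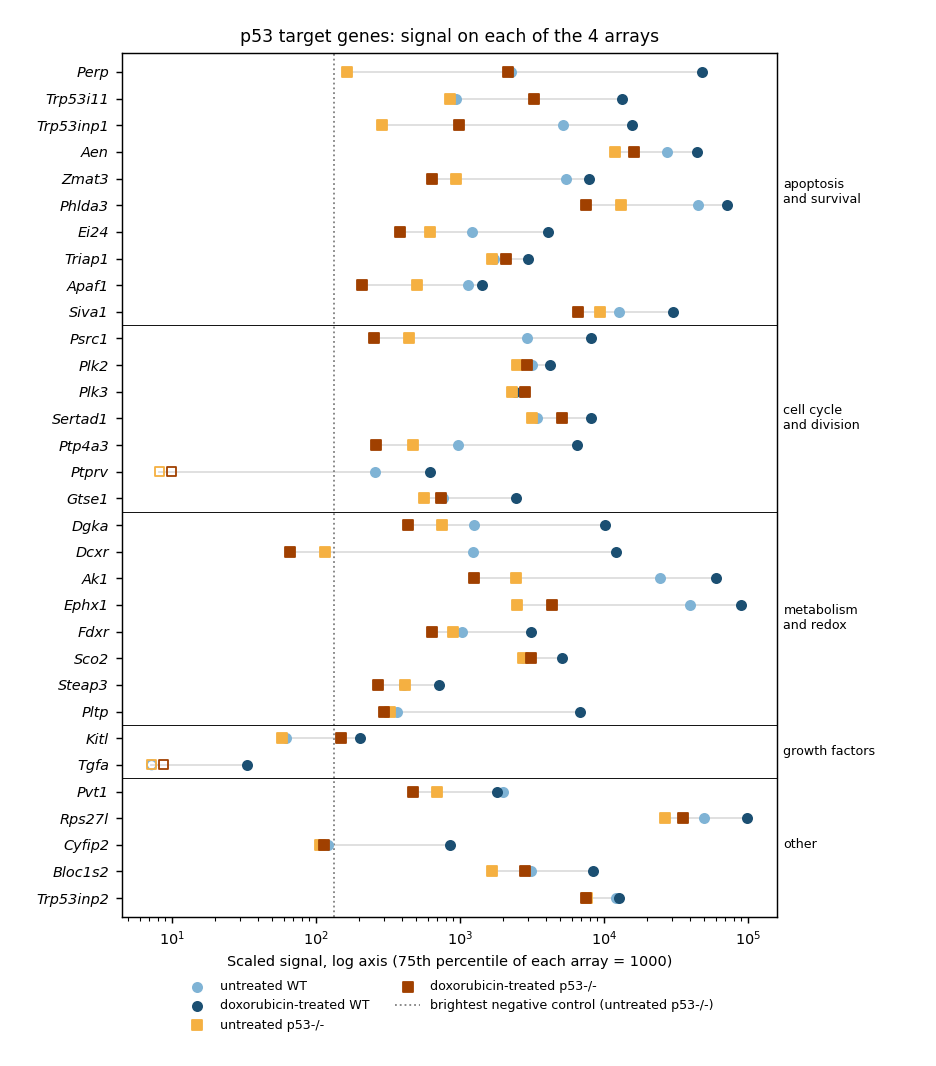
Scaled signal of each p53 target (x axis, log scale, the 75th percentile of each array set to 1000) on the 4 arrays, circles for WT and squares for p53-/- MEFs, pale for untreated and dark for doxorubicin-treated cells, open where not well above background, with a dotted line at the brightest negative control of untreated p53-/- MEFs. Doxorubicin-treated WT MEFs hold the highest signal for all genes except Plk3 and Pvt1, from 33.4 for Tgfa to 99105 for Rps27l.

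In the group that acts on the cell cycle and cell division, 5 of 7 measured members rose in WT MEFs (11.0% of all genes) and 0 of 6 in p53-/- MEFs (9.24%), while 2 of 6 were lower in untreated p53-/- MEFs (2.62%). With so few members, 0 is near the share of all genes. Psrc1 encodes a microtubule-binding protein of the spindle. Its scaled signal was 2944 and 8128 in WT MEFs without and with doxorubicin, and 446 and 255.6 in p53-/- MEFs. Both p53-/- arrays lay far below both WT arrays, with a basal log2 ratio of -2.72, and doxorubicin gave 1.47 in WT and -0.80 in p53-/- MEFs. Ptp4a3 encodes a phosphatase of the PRL family. At 969 and 6541 in WT MEFs without and with doxorubicin, and 478 and 262 in p53-/- MEFs, it rose 6.75-fold in WT MEFs, had a log2 ratio of -0.86 in p53-/- MEFs, and was lower in untreated p53-/- MEFs with a log2 ratio of -1.02, at the edge of the 2-fold limit and, at -0.91, short of it with normexp background correction.

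Gtse1 encodes a microtubule-associated protein, named for its expression in the S and G2 phases, that also binds p53 and moves it out of the nucleus. Its scaled signal was 770.4 and 2475 in WT MEFs without and with doxorubicin, and 561 and 744 in p53-/- MEFs. Only doxorubicin-treated WT MEFs stood apart, with a log2 ratio of 1.68 in WT against 0.41 in p53-/- MEFs. This rise ran against that of proliferation genes, a list of 28, of which 24 of 26 measured fell in WT MEFs (10.4% of all genes), with a median of -2.97, and 0 of 27 in p53-/- MEFs (6.89% of all genes), with a median of 0.42. Mki67 and Top2a, which mark cycling cells, had log2 ratios of -3.97 and -4.47 in WT and 0.30 and 0.40 in p53-/- MEFs. Ccnb1, the mitotic cyclin B, had -2.33 and 0.41. In untreated cells, 15 of 27 proliferation genes were higher in p53-/- MEFs (2.15% of all genes), with a median of 1.02. The part that these differences play in the results for the p53 targets was not tested.

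Sertad1, which binds the cyclin D kinase, rose in WT MEFs at scaled signals of 3419 and 8169.7 in WT MEFs without and with doxorubicin, and 3183 and 5156 in p53-/- MEFs. The log2 ratios were 1.26 in WT and 0.70 in p53-/- MEFs, and the ratio between the untreated genotypes was -0.10. With the array median as the scale the rise in WT MEFs was 0.98, below 2-fold. Ptprv, a receptor-type tyrosine phosphatase linked to p53-induced arrest in mice, had signals of 258 and 625 in WT MEFs without and with doxorubicin, with 1.28 as the log2 ratio. It was not well above background in p53-/- MEFs, at 8.22 and 9.91. Against the lowest signals called well above background on those arrays, Ptprv was at least 8.37-fold lower without and 17.4-fold lower with doxorubicin. Against the brightest negative controls of the same arrays, WT MEFs stood 1.94-fold higher without and 12.6-fold higher with doxorubicin, so that the first bound then falls short of 2-fold. The second Ptprv probe was not well above background on any array. The stress kinases Plk2 and Plk3 stayed under 2-fold, at log2 ratios of 0.43 and -0.15 in WT and 0.21 and 0.29 in p53-/- MEFs.

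The members that act in metabolism and redox reactions had the lowest median ratio between the genotypes with doxorubicin among the groups by role. Of 8 members, 6 rose in WT MEFs (11.0% of all genes) and 0 in p53-/- MEFs (9.24%, so that 0 of 8 is near this share), and 3 were lower in untreated p53-/- MEFs (2.62%). With doxorubicin, 7 of 8 were lower in p53-/- MEFs (10.3% of all genes), the median being -4.45 on the log2 scale. Dcxr encodes a reductase of dicarbonyls and xylulose that uses NADPH, and its probe spans 141 bases of the genome at chr11:120587276-120587416, more than its 60 bases, so that its match is split on the genome. The scaled signal was 1241 and 12223 in WT MEFs without and with doxorubicin, and 116 and 65.8 in p53-/- MEFs. Its rise in WT MEFs was 9.85-fold, the basal log2 ratio was -3.42, and the ratio with doxorubicin, -7.54, was the lowest of all members. A negative control was brighter than Dcxr in untreated p53-/- MEFs. The basal ratio and the response in p53-/- MEFs, -0.81, are therefore uncertain in size. The size of -7.54 is uncertain too. It rests on 65.8 in doxorubicin-treated p53-/- MEFs, not far above the brightest negative control of that array, 49.4. Both WT signals exceeded the negative controls. With normexp background correction, the Dcxr ratio with doxorubicin was -6.87.

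Ak1, the cytosolic adenylate kinase, and Ephx1, the microsomal epoxide hydrolase, were bright on all 4 arrays. The Ak1 signal was 24753 and 60719 in WT MEFs without and with doxorubicin, and 2464 and 1252 in p53-/- MEFs. The Ephx1 signal was 39561 and 90389.9 in WT MEFs without and with doxorubicin, and 2515 and 4371 in p53-/- MEFs. Both p53-/- arrays lay far below both WT arrays for each gene. The basal log2 ratios were -3.33 and -3.98. Doxorubicin gave 1.29 and 1.19 in WT MEFs, and -0.98 and 0.80 in p53-/- MEFs. With the array median as the scale the Ephx1 ratio in WT MEFs was 0.92, below 2-fold. The second Ephx1 probe gave a basal ratio of -2.59 and a response of 1.44 in WT and 0.14 in p53-/- MEFs.

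Pltp, the phospholipid transfer protein of lipoproteins, and Dgka, a kinase that turns diacylglycerol into phosphatidic acid, had large rises in WT MEFs with a basal loss under 2-fold. The Pltp signal was 368 and 6828 in WT MEFs without and with doxorubicin, and 329.7 and 296 in p53-/- MEFs, so that 3 arrays lay together and doxorubicin-treated WT MEFs stood 18.6-fold above untreated ones. Its difference of log2 ratios between the genotypes, 4.37, was the largest of the 30 members measured. The Dgka signal was 1261 and 10188 in WT MEFs without and with doxorubicin, and 749 and 439 in p53-/- MEFs, with responses of 3.01 in WT and -0.77 in p53-/- MEFs on the log2 scale and a basal ratio of -0.75. The probes lie at chr2:164665022-164665081 and chr10:128157256-128157315.

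Fdxr, the ferredoxin reductase that feeds electrons to mitochondrial P450 enzymes, rose at scaled signals of 1030.0 and 3126 in WT MEFs without and with doxorubicin, and 903 and 642 in p53-/- MEFs. Its log2 ratio was 1.60 in WT and -0.49 in p53-/- MEFs, with -0.19 between the untreated genotypes. Sco2, a copper chaperone of cytochrome c oxidase, and Steap3, a ferrireductase, stayed under 2-fold. Their log2 ratios were 0.92 and 0.81 in WT and 0.18 and -0.62 in p53-/- MEFs. The ratios between the untreated genotypes were 0.01 and 0.02, and the second Steap3 probe gave -0.49.

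**Figure D3:**
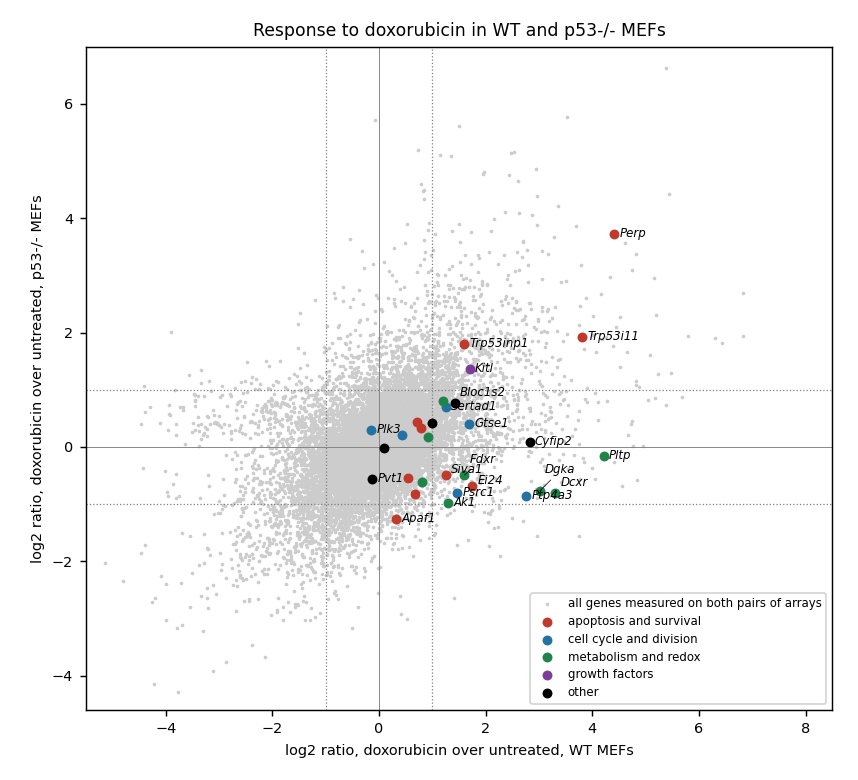
Log2 ratio of doxorubicin-treated over untreated WT MEFs (x axis) against the same ratio in p53-/- MEFs (y axis) for the 30 p53 targets measured on all 4 arrays, colored by role, and for all genes so measured (grey), with dotted lines at 2-fold. Perp (4.40 and 3.73), Trp53i11, Trp53inp1 and Kitl lie above both upper limits, and the other targets to the right of the vertical 2-fold line lie between the horizontal ones.

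The growth factors on the list gave signals within reach of the negative controls. Kitl, the ligand of the Kit receptor, had scaled signals of 62.2 and 202 in WT MEFs without and with doxorubicin, and 58.5 and 149.7 in p53-/- MEFs. It rose in both genotypes, by log2 ratios of 1.70 and 1.36, but the second ratio rests on an untreated signal weaker than the brightest negative control of its array, 133. With normexp background correction the ratio in p53-/- MEFs was 0.86, below 2-fold. Tgfa, a ligand of the EGF receptor, passed the background limit on the array of doxorubicin-treated WT MEFs alone, at 33.4. That value does not exceed the brightest negative control of the array, 42.6, and against the lowest measured signal of untreated WT MEFs Tgfa was at least 1.22-fold higher.

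Among the remaining members, Cyfip2, a subunit of the WAVE complex that drives actin branching, rose 7.08-fold in WT MEFs at scaled signals of 122 and 861 in WT MEFs without and with doxorubicin, and 107.4 and 114 in p53-/- MEFs. Only doxorubicin-treated WT MEFs stood apart. The ratio in p53-/- MEFs, 0.09, and the basal ratio, -0.18, rest on an untreated signal weaker than the brightest negative control, 133. Bloc1s2, a subunit of a complex that forms lysosome-related organelles, had scaled signals of 3137 and 8393 in WT MEFs without and with doxorubicin, and 1668 and 2832 in p53-/- MEFs, with log2 ratios of 1.42 (WT) and 0.76 (p53-/-). Pvt1, a long noncoding RNA encoded next to Myc, had 2004 and 1828 in WT MEFs without and with doxorubicin, and 691 and 470.5 in p53-/- MEFs. It was lower in untreated p53-/- MEFs, at -1.54 for the brighter probe, where the other probe gave -0.84, and had -0.13 with doxorubicin in WT MEFs.

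Rps27l, a ribosomal protein closely related to Rps27, had scaled signals of 49601 and 99105 in WT MEFs without and with doxorubicin, and 26746 and 35763 in p53-/- MEFs. Its log2 ratio in WT MEFs, 0.999, lay just under the 2-fold limit, beside 0.42 in p53-/- MEFs and -0.89 between the untreated genotypes. Whether its probe, whose match is split on the genome within chr9:66795486-66797176, also binds Rps27 RNA was not tested. Trp53inp2, a relative of Trp53inp1 that acts in autophagy, had responses of 0.09 in WT and -0.02 in p53-/- MEFs on the log2 scale. The pair thus differed in response, since Trp53inp1 rose in both genotypes by its brighter probe and Trp53inp2 stayed within 0.1 of 0 on the log2 scale.

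To show the kind of sequence that p53 binds, the promoters of the members (250 bases before to 50 after each transcription start, RefSeq, GRCm38.p6) were searched for the p53 consensus site, a 20-base motif made of a pair of adjoining half-sites. The consensus reads the same on both strands, and no spacer was allowed between the half-sites. The table held 39 promoters for 26 members and 32851 promoters in all. A match at all 20 bases was found in 0 member promoters and in 3 of all promoters. Matches with at most 1 departing base were found in 2 of 39 member promoters (Gtse1 and Rps27l), and in 0.0883% of all promoters. Aen and Bloc1s2 followed with 3 departing bases, a level reached by 5 of 39 member promoters and 6.29% of all promoters. At most 4 departing bases were found in 10 of 39 member promoters, against 30.2% of all promoters. The best windows of Gtse1, Rps27l, Aen and Bloc1s2 are shown with capitals where the base fits the consensus and lower case where it departs.
Gtse1, chr15:85859945-85859964, plus strand: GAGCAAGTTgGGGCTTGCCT
Rps27l, chr9:66946296-66946315, plus strand: GGGCTTGTTgAGACTTGTCC
Aen, chr7:78895937-78895956, plus strand: GGGCTTGTCCGGGCAAGgag
Bloc1s2, chr19:44146585-44146604, minus strand: GGGCTAaTTCGcAaTAGCCT

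The Rps27l window runs from -117 to -98 relative to a RefSeq start of the gene. It is shown here with 40 bases on each side and the 20 bases in capitals, as chr9:66946256-66946355 on the plus strand.
Rps27l: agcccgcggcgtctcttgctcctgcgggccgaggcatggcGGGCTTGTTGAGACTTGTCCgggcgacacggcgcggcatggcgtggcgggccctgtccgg
The 4 genes had log2 ratios with doxorubicin in WT MEFs of 1.68 for Gtse1, 0.999 for Rps27l, 0.71 for Aen and 1.42 for Bloc1s2, and of 0.41, 0.42, 0.43 and 0.76 in p53-/- MEFs. Such a match describes the letters in this window only, and sites further away were not searched. Perp, Trp53inp1, Zmat3, Ptp4a3, Ptprv and Pvt1 were not in the table.

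Set side by side, basal loss and induction divided the 30 members measured on all 4 arrays into 5 patterns. A 2-fold basal loss together with a 2-fold rise in WT MEFs was found for 7 members, Perp, Trp53inp1, Psrc1, Ptp4a3, Dcxr, Ak1 and Ephx1, and for 0.762% of all genes. A basal loss without a 2-fold rise in WT MEFs was found for 5, Aen, Zmat3, Phlda3, Apaf1 and Pvt1, and for 1.75% of all genes. A rise in WT MEFs with untreated p53-/- MEFs less than 1.5-fold lower was found for 8, Trp53i11, Siva1, Sertad1, Gtse1, Fdxr, Pltp, Kitl and Cyfip2, and for 8.53% of all genes. Ei24, Dgka and Bloc1s2 rose in WT MEFs and were between 1.5-fold and 2-fold lower in untreated p53-/- MEFs, as were 1.25% of all genes. The other 7, Triap1, Plk2, Plk3, Sco2, Steap3, Rps27l and Trp53inp2, were under 2-fold in the untreated genotypes and in both responses, as were 69.6% of all genes, although Steap3 (-1.40) and Rps27l (-1.47) were lower in p53-/- MEFs with doxorubicin. Several members leave their pattern under another setting or probe, among them Siva1, Sertad1 and Ephx1 (no 2-fold rise in WT MEFs) and Ei24 (2-fold basal loss, -1.02) with the array median as the scale, Ptp4a3 (no 2-fold basal loss) with normexp, Rps27l (2-fold rise in WT MEFs, 1.03) with quantile normalization, and Pvt1 (no 2-fold basal loss) with the dimmer probe. For Trp53i11 the dimmer probe gave a bound past 2-fold, from a WT signal within reach of the negative controls. These comparisons share arrays, untreated WT MEFs entering both the basal ratio and the rise in WT MEFs, so that the error of an array enters several of them.

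For 11 members, or 36.7%, the response reached 2-fold in WT MEFs but not 1.5-fold in p53-/- MEFs, against 4.55% of all genes. They were Ei24, Siva1, Psrc1, Ptp4a3, Gtse1, Dgka, Dcxr, Ak1, Fdxr, Pltp and Cyfip2. For 8 members, against 1.04% of all genes, the ratios were 1.5-fold or more higher in WT and lower in p53-/- MEFs. The log2 ratio was larger in WT than in p53-/- MEFs for 28 of 30 members, as for 50.9% of all genes, with Trp53inp1 (-0.20) and Plk3 (-0.45) as the exceptions. For Trp53inp1 the direction turned with the probe, the dimmer one giving a difference of 1.89. A 2-fold rise in both genotypes was limited to Perp, Trp53i11, Trp53inp1 and Kitl among the members, 13.3% against 3.97% of all genes. In p53-/- MEFs, Kitl fell short of it with normexp and Trp53inp1 with the dimmer probe. Perp and Trp53inp1 among them also had a basal loss, a combination held by 0.568% of all genes.

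**Figure D4:**
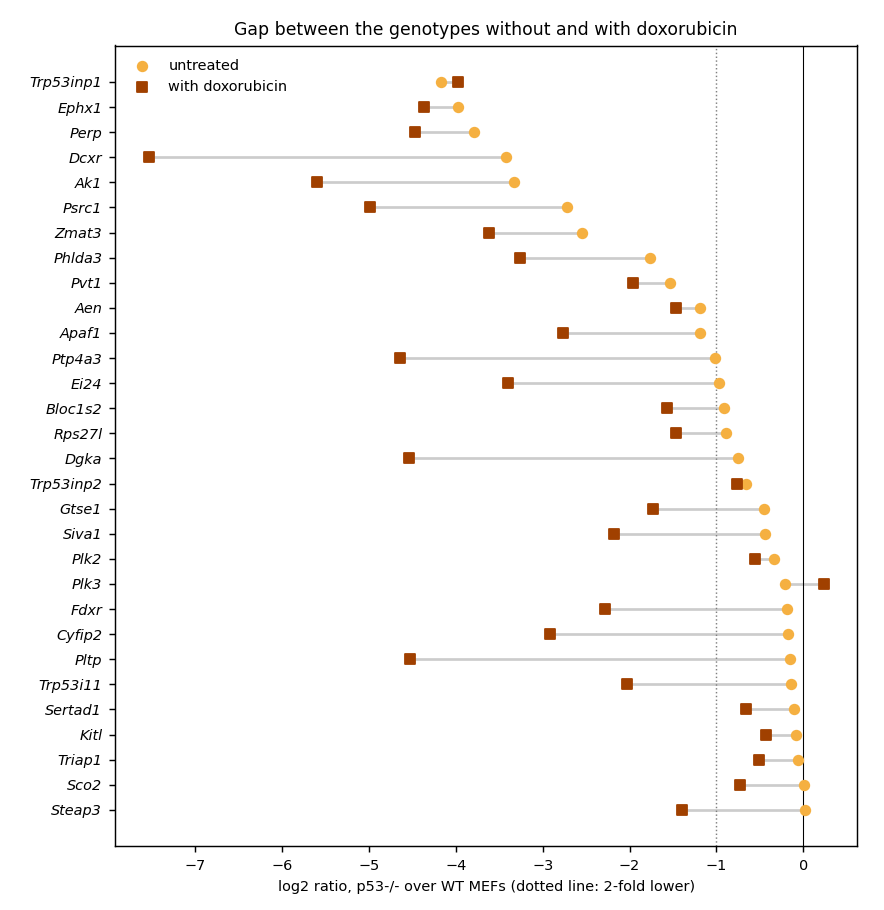
Log2 ratio of p53-/- over WT MEFs (x axis) for each of the 30 p53 targets measured on all 4 arrays, without (circles) and with doxorubicin (squares), ordered by the untreated ratio, with a dotted line at 2-fold lower. The untreated ratios run from -4.17 for Trp53inp1 to 0.02 for Steap3, and the squares lie to the left of the circles except for Plk3 and for Trp53inp1, whose dimmer probe, not plotted, gave -2.05 without and -3.94 with doxorubicin.

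Doxorubicin-treated p53-/- MEFs were also set against untreated WT MEFs, to see whether the rises without p53 reached the level that WT MEFs hold without damage. Of 30 members, 12 were at least 2-fold below that level (10.2% of all genes) and 2 were at least 2-fold above it (12.4%). These counts hold for the scaled signals and were not repeated under the other settings. Scaling to the array median moved the median of all genes to -0.30 with doxorubicin in p53-/- MEFs and to -0.05 between the untreated genotypes. Both shifts lower the ratios of this comparison. Calls near the limits may then change, such as those of Aen, Siva1 and Fdxr below and Kitl above. Of the 12 lower members, Trp53inp1, Zmat3, Phlda3, Apaf1, Psrc1, Ptp4a3, Dcxr, Ak1, Ephx1 and Pvt1 also had a basal loss of 2-fold. The others were Ei24 (-1.66) and Dgka (-1.52), which had basal log2 ratios of -0.97 and -0.75. Perp and Aen (-0.76) had a basal loss of 2-fold but were not among the 12 by their scaled signals. Perp had a log2 ratio of -0.06, so that the 13.2-fold rise ended near the level of untreated WT MEFs. Trp53i11 and Kitl ended above it, at 1.78 and 1.27, and Trp53inp1 ended below it, at -2.38. The Kitl value rests on a signal of 62.2 in untreated WT MEFs, near the brightest negative control of that array, 52.2. With normexp background correction its response in p53-/- MEFs was 0.86 and its basal ratio -0.04, so that Kitl would fall short of 2-fold. The dimmer Trp53i11 probe gave 0.24, so that the 2-fold call for this gene rests on the brighter probe. Ak1, Dcxr and Psrc1 were the lowest, at -4.31, -4.24 and -3.53. Among the members that rose in WT MEFs with a basal loss under 1.5-fold, the other values were -0.05 for Gtse1, -0.09 for Cyfip2, -0.31 for Pltp, 0.59 for Sertad1, -0.68 for Fdxr and -0.94 for Siva1.

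Other established p53 targets, a list of 30, were measured for 28 genes in WT MEFs and 27 in p53-/- MEFs. In WT MEFs 18 rose (11.0% of all genes) and 1 fell (10.4%), with a median log2 ratio of 1.20. In p53-/- MEFs 7 rose (9.24%) and 3 fell (6.89%), with a median of 0.41. Of 27 genes, 15 were lower in untreated p53-/- MEFs (2.62%) and 0 higher (2.15%), with a median of -1.34. With doxorubicin 17 of 27 were lower (10.3%) and 1 higher (11.9%), with a median of -2.11. Cdkn1a, the p21 inhibitor of cyclin-dependent kinases, had scaled signals of 13799 and 58282 in WT MEFs without and with doxorubicin, and 519 and 2442 in p53-/- MEFs, and like Trp53inp1 joined a basal loss of -4.73 to log2 ratios of 2.08 (WT) and 2.23 (p53-/-). Ccng1, cyclin G, had a basal ratio of -3.63 and responses of 1.13 and -0.13. Mdm2, the ubiquitin ligase of p53, had -1.80, 1.998 and 0.47 in the same order, and Bax, which opens the outer mitochondrial membrane, had -0.97, 1.10 and -0.33.

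The relatives of p53 and its inhibitor Mdm4 were under 2-fold in WT MEFs. The log2 ratio with doxorubicin was 0.67 in WT and -0.32 in p53-/- MEFs for Trp63, and 0.45 and 0.29 for Trp73, whose signals ran from 89.0 to 161. In untreated p53-/- MEFs the Trp73 signal, 132, was below the brightest negative control. Mdm4, a relative of Mdm2 that blocks p53, had 0.01 in WT and -1.01 in p53-/- MEFs, a fall past 2-fold in the latter. Of 10 reference genes, 1 rose in WT MEFs (11.0% of all genes) and 0 in p53-/- MEFs (9.24%). The gene that rose, named after its values were seen, was Hprt, at 1.13 in WT and 0.23 in p53-/- MEFs and at -1.46 between the genotypes with doxorubicin. With the array median as the scale it was under 2-fold in WT MEFs, at 0.85. Actb and Gapdh had log2 ratios of 0.04 and -0.06 in WT and -0.42 and -0.32 in p53-/- MEFs.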

How the data were processed

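RNA of the 4 samples (200 ng each) was labeled with Cy3 and scanned, and the authors extracted spot values with Feature Extraction 10.7.3.1 of Agilent. Each deposited intensity had its background and its trends across the array removed by that program, and no scaling between arrays. The deposited flags, coded as other values of 0 or 1, mark outlier, saturated and well above background spots. A deposited matrix of intensities differed from these at 0 of 177588 values. Probe positions are in mm9.

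Of 43020 non-control spots per array, 162, 153, 145 and 168 outliers (untreated WT, doxorubicin-treated WT, untreated p53-/-, doxorubicin-treated p53-/-) were left out, and 0 were saturated. Log2 intensities of the spots of a probe were averaged and scaled to the 75th percentile. Well above background were 57.5%, 62.9%, 56.9% and 58.4% of probes. For genes with several probes, the brightest on average represented the gene. Where 1 of the arrays compared was not well above background, its lowest signal so called gave a bound. Precision is limited by the number of arrays, and no p-values were computed.

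The members and the lists (other p53 targets, p53 and its regulators, proliferation, reference genes, and markers of fibroblasts, leukocytes, epithelium, endothelium, muscle and neural cells) were chosen with earlier results of these data known. By the rule for named genes, all members are named, with the signal on every array for those at least 2-fold apart in a response or between the untreated genotypes. Also named are p53 and its regulators, Cdkn1a, Mdm2, Ccng1, Bax, Mki67, Top2a, Ccnb1, Actb and Gapdh. As alternatives, arrays were scaled to their median, normalized by quantiles or corrected with normexp (limma 3.58.1, R 4.3.3, offset 50), other filters on dim probes, probe means and the deposited matrix were used, and the threshold was set to 1.5-fold or 3-fold. A slide block was not run, with 1 slide. The scripts were tested on simulated data, which, with 1 array per condition, says nothing about the error of the calls. Python 3.11.15, numpy 2.4.6, pandas 2.3.3 and matplotlib 3.10.9 were used.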

Additional observations from a re-analysis of the deposited data

Results flagged for a closer look

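With doxorubicin, 8 members had ratios of 1.5-fold or more on opposite sides, higher in WT and lower in p53-/- MEFs, as did 1.04% of all genes. With 1 array per condition this difference between the genotypes was not tested. The log2 ratio in WT minus that in p53-/- MEFs was 4.11 for Dcxr, 3.78 for Dgka, 3.62 for Ptp4a3, 2.43 for Ei24, 2.27 for Psrc1, 2.27 for Ak1, 1.501 for Phlda3 and 1.43 for Steap3. The Dcxr value rests on an untreated p53-/- signal below the brightest negative control, and was 3.82 with normexp background correction. In p53-/- MEFs none of the 8 passed 2-fold with arrays scaled to the 75th percentile, but Ak1, Ptp4a3, Phlda3, Dcxr, Psrc1 and Dgka did with arrays scaled to the median. With the median as the scale, Phlda3 and Steap3 fell short of 1.5-fold in WT MEFs, while Siva1 and Fdxr then passed it on both sides. The ratio was further from 0 in WT than in p53-/- MEFs for all of the 8 except Phlda3 (0.68 in WT and -0.82 in p53-/- MEFs), with the 75th percentile as the scale.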

How the results depend on the processing

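All 59 member ratios past 2-fold in the 4 comparisons kept their sign under the scalings, background correction, filters and probe choices in which they were measured. Scaling to the array median gave a median member log2 ratio of 1.002 with doxorubicin in WT and -0.26 in p53-/- MEFs, where quantile normalization gave -0.0789 and no filter on dim probes 0.13. Since these p53-/- medians lie on both sides of 0, no direction is read from them. A 1.5-fold threshold gave 7 of 30 members higher with doxorubicin in p53-/- MEFs, near the 19.4% of all genes, and a 3-fold threshold 12 of 31 in WT MEFs, against 5.07%. Under the other settings the counts ran from 16 to 20 for a rise in WT MEFs, 3 to 4 in p53-/- MEFs, 11 to 13 for lower untreated p53-/- MEFs, and 23 to 25 for lower doxorubicin-treated p53-/- MEFs. Scaling to the array median took Siva1 (0.97), Sertad1 (0.98) and Ephx1 (0.92) below 2-fold in WT MEFs, and normexp took Kitl in p53-/- MEFs (0.86) and the basal ratio of Ptp4a3 (-0.91). Scaling to the array median also brought 7 ratios past 2-fold, namely the basal ratio of Ei24 (-1.02) and falls of Ak1, Ptp4a3, Phlda3, Dcxr, Psrc1 and Dgka in p53-/- MEFs, where 7 members then fell instead of 1, against 12.4% of all genes. Quantile normalization brought 2, Rps27l in WT (1.03) and Dcxr in p53-/- MEFs (-1.10), and 2 members then fell there, against 8.25% of all genes. At 1.5-fold 9 of 30 fell there, against 15.9%, and at 3-fold 0, near the 2.26% of all genes. The mean of a gene's probes moved the basal ratio of Trp53inp1 by 1.06, to -3.11. Signals above the brightest negative control on both arrays left 27 of 30 members in the comparisons with untreated p53-/- MEFs. No paired analysis was run. Because each condition has 1 array, no replicate could be left out.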

Other observations

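Markers of other cell types were measured in part. Of 7 leukocyte markers on the array, 6 were well above background in untreated WT, 7 in doxorubicin-treated WT, 6 in untreated p53-/- and 5 in doxorubicin-treated p53-/- MEFs, with summed scaled signals of 15461, 22529, 17739.9 and 14594. The sums mostly follow the brightest probe of a list, which does not rank the genes by their RNA. Here it was that of Itgam, at 11703 to 17425, and Cd68 was not well above background on 3 of the arrays. Cd14 was at 248 and 3310.2 in WT MEFs without and with doxorubicin, and at 299 and 461 in p53-/- MEFs. Of 6 epithelial markers, 3, 5, 3 and 4 were well above background in the same order, with sums of 5735, 10501, 5371 and 17921. Krt18, with the brightest probe, went from 4437 to 16644 with doxorubicin in p53-/- MEFs, Krt5 was well above background in doxorubicin-treated WT MEFs, at 523, and on no other array, Krt14 had log2 ratios with doxorubicin of 1.54 (WT) and 1.05 (p53-/-), and Epcam was not well above background on any array. Endothelial markers summed to 3678, 4222, 2929 and 2337, with the Kdr probe as the brightest and Cdh5 and Tie1 not well above background on any array. Muscle markers summed to 7306, 4161, 8166 and 4734, with the Acta1 probe as the brightest, without Myod1 or Ckm above background, and neural markers to 9368, 14448, 13076 and 24317, without Sox2 or Gfap. The neural sums follow the Nes probe, with log2 ratios with doxorubicin of 0.66 (WT) and 1.07 (p53-/-), whereas Sox10 had -1.41 and -1.13, and Tubb3 had 0.66 and -0.48. The part of such cells in the values of the p53 targets was not tested.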
